A study of Vigna radiata with 9 samples.

Results

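Carotenoids are the yellow and orange pigments of the chloroplast, and they also serve as the raw material of the stress hormone abscisic acid. Phytoene synthase joins geranylgeranyl diphosphate into phytoene, desaturases and isomerases turn phytoene into lycopene, and cyclases close its ends into the rings of beta-carotene or of alpha-carotene, the precursor of lutein. Hydroxylases then give lutein and zeaxanthin, zeaxanthin epoxidase and violaxanthin de-epoxidase run the xanthophyll cycle that protects leaves in strong light, and dioxygenases of the NCED family cut the epoxidised pigments to xanthoxin, which a dehydrogenase and an oxidase turn into abscisic acid. The genes described here are the 34 of 26966 annotated mung bean genes whose pathway annotation in the deposited table names carotenoid biosynthesis. Another 6 genes of that pathway encode abscisic acid 8'-hydroxylases, which break the hormone down, and are not counted among them. The 34 genes encode 22 enzymes in 10 steps, with phytoene synthase 1 counted under phytoene synthase and NCED1 and NCED2 counted apart. Of these genes 28 had enough counts to be tested.

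Leaf RNA of the mung bean variety Lvfeng No.2 was sequenced from 3 groups of 3 pots. CK plants received a water spray and remained in the natural environment, by the methods, or at room temperature, by the labels. LT plants received the same spray and went 36 h later into a phytotron at 15 °C for 4 days, and LT+S plants had this course after a spray of uniconazole at 50 mg/L. The spray was given at the onset of flowering, and uniconazole is a triazole growth retardant. Any effect of the phytotron itself cannot be told apart from that of temperature. No group with uniconazole and without cold was analysed here. The labels number the compound S3305, S3306 and S3307 across the LT+S libraries, while the methods give S3307, and the libraries were taken as replicates of 1 treatment. Total counts were 19561896 to 21617340 per library. Levels are given as CPM, counts per 1000000 of the library total after TMM scaling, which sets libraries to a common level over most genes. The CK libraries were uneven in composition: the summed level of 20 mesophyll genes (Rubisco small subunits and chlorophyll a-b binding proteins) ran from 59975 to 101475 CPM in CK, from 6725 to 15357 CPM in LT, and from 15862 to 18277 CPM in LT+S, and 19 of the 20 were lower in each cold group. In whole leaves, fewer cells of a type and less RNA per cell cannot be told apart.

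Under cold alone, the genes that carry phytoene to lutein and to the epoxidised xanthophylls were mostly lower relative to the median gene, while NCED1 and additional copies of several enzymes were higher. Of 28 tested genes, 9 were higher and 14 lower in LT when compared with CK (adjusted p under 0.05, quasi-likelihood test of edgeR), where 22.8% of all 19304 genes tested were higher and 23.7% lower. In either direction this made 82.1% of the tested genes of the pathway against 46.5% of all genes. The threshold of the methods, a change of more than 2-fold at an unadjusted p under 0.05, took 14 genes (25.1% of all genes), 9 higher (11.8%) and 5 lower (13.4%). All LT libraries lay on the same side of all CK libraries in 24 of the 28 genes (54.8% of all genes). The median log2 fold change was -0.50 over the 28 genes and 0.01 over all genes, and the median size of a change was 1.01 against 0.54. The lower calls depended on the scaling: with library totals and no TMM factors, a setting chosen after the data were seen, the median of all genes rose to 0.52 and the pathway had 10 genes higher and 4 lower. The 4 were lycopene beta cyclase, lycopene epsilon cyclase, CYP97C1 and zeaxanthin epoxidase LOC106768400. The share of all genes called under that setting was not counted, so these counts cannot be set against the general shift. Changes below are given relative to the median gene, as TMM sets it.

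With uniconazole before the cold, 8 of the 28 genes were higher (19.7% of all genes) and 8 lower (21.9% of all genes) than in CK. The threshold on fold took 9 genes (22.4% of all genes), 6 higher (10.8%) and 3 lower (11.6%), and LT+S was separate from CK in 19 of 28 genes (55.7% of all genes). The median log2 fold change was -0.40 over the pathway and 0.01 over all genes. Without TMM factors the median of all genes rose to 0.50, and 10 genes were higher and 3 lower, again with no count over all genes. LT and LT+S share their CK libraries, so that agreement between these comparisons rests partly on shared data. Genes are therefore described below with their level in every library or, for some, with a range or a maximum.

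**Figure D1:**
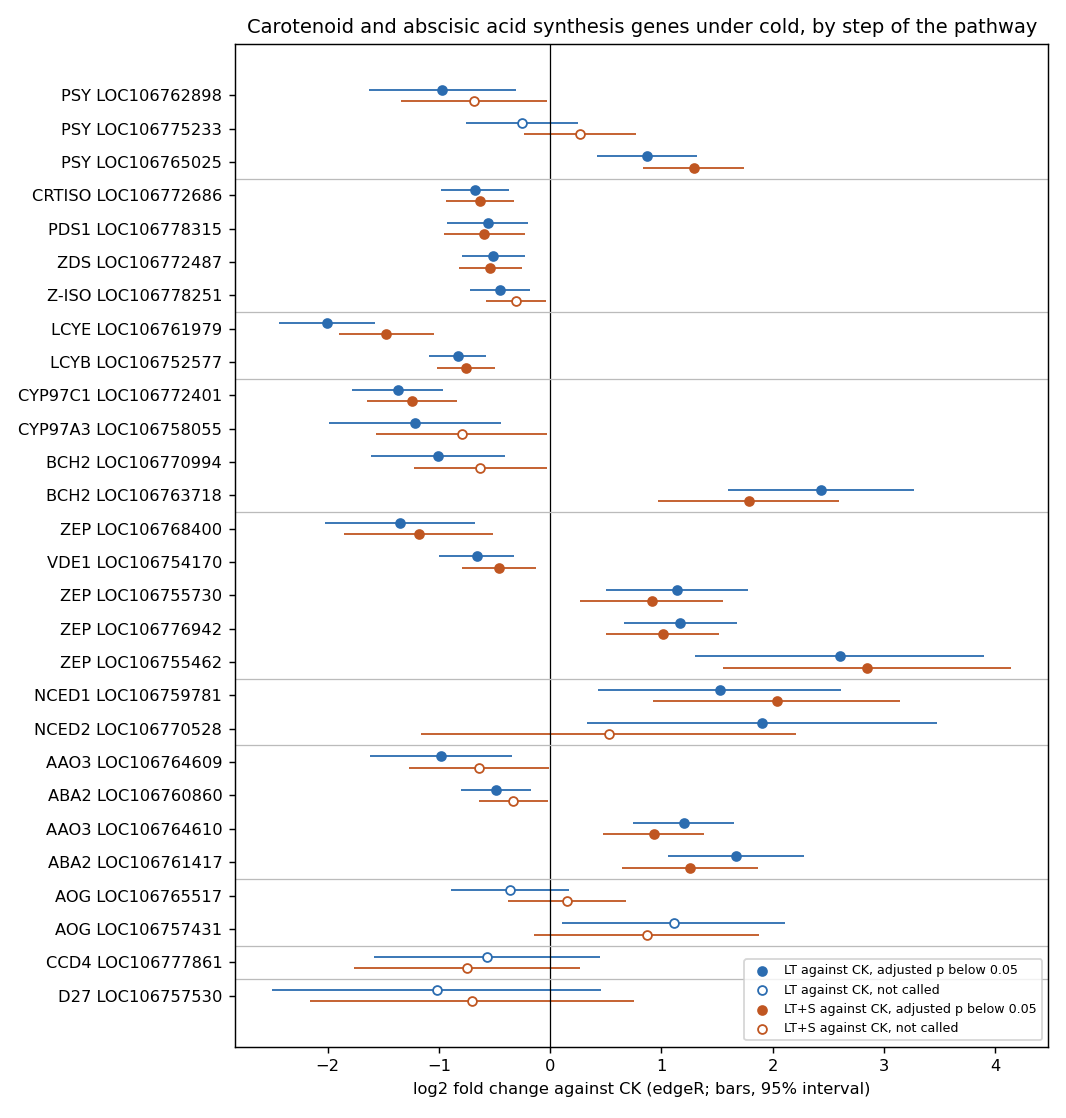
Log2 fold changes against CK (x axis; edgeR, with 95% intervals) of the 28 tested genes, ordered by step from phytoene synthase at the top to the strigolactone branch at the bottom. Filled points passed an adjusted p of 0.05; the desaturase, isomerase and cyclase genes all lie below 0 in both cold groups (Z-ISO above 0 without TMM factors), while BCH2 LOC106763718 and NCED1 lie above it.

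Phytoene synthase, the entry enzyme of the pathway and a step known to limit its flux, had 4 genes, which did not respond alike. LOC106762898 on chromosome 6 was at 463, 572 and 715 CPM in CK, 219, 449 and 225 in LT, and 387, 315 and 386 in LT+S. Every cold library was below every CK library, and LT 2 was well above the other LT libraries. The gene fell in LT, with a log2 fold change of -0.97 (SE 0.29, edgeR adjusted p = 0.0237), and was at -0.69 in LT+S (adjusted p = 0.0885). The LT call was lost without CK 2, CK 3, LT 1 or LT 3 (adjusted p = 0.0582 to 0.0780) and in a fit of the 6 libraries of these groups alone (adjusted p = 0.0554).

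LOC106765025, also on chromosome 6, moved the other way. Its levels were 171, 155 and 143 CPM in CK, 234, 299 and 325 in LT, and 494, 344 and 312 in LT+S. No cold library overlapped with CK, and LT+S 1 was the highest of all. The log2 fold change was 0.87 in LT (SE 0.20, edgeR adjusted p = 0.00677) and 1.29 in LT+S (SE 0.20, adjusted p = 0.00119). The third gene, LOC106775233 on chromosome 1, was at 186, 211 and 285 CPM in CK, 172, 248 and 153 in LT, and 293, 235 and 292 in LT+S, and the groups overlapped. It passed the test against CK in neither cold group. The fourth, PSY1 LOC106778257, had almost no counts.

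Expressed as shares of all phytoene synthase reads, which no scaling between libraries can alter, LOC106765025 took 20.8, 16.6 and 12.5% in CK, 37.5, 30.0 and 46.2% in LT, and 42.1, 38.4 and 31.5% in LT+S. LOC106762898 took 60.0% ± 3.12 (SD, n = 3) in CK, 37.4% ± 6.86 in LT and 35.7% ± 3.04 in LT+S. Both shares were separate from CK in each cold group. In an exact permutation test, 2-sided, of 3 libraries against 3 the p was 0.1, the smallest that this design allows (0.157 after adjustment over 33 such tests). The sum over the genes, by contrast, overlapped between groups: 819 to 1143 CPM in CK, between 625 and 996 in LT, and between 894 and 1173 in LT+S.

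The 4 enzymes that turn phytoene into lycopene, each with a single gene, were lower by less than 2-fold in LT, although none was called lower, and Z-ISO turned higher, without TMM factors. Phytoene desaturase PDS1 (LOC106778315), which introduces the first double bonds, was at 177, 159 and 152 CPM in CK, 94.9, 129 and 107 in LT, and 131, 97.8 and 95.2 in LT+S. Every cold library lay below CK. Its log2 fold change was -0.56 in LT (edgeR adjusted p = 0.0197) and -0.59 in LT+S (adjusted p = 0.0178). The LT call was lost without CK 1, CK 2, LT 1 or LT 3 (adjusted p = 0.0506 to 0.0703) and the LT+S call without LT+S 2 or LT+S 3 (0.0685 and 0.0690).

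Zeta-carotene desaturase ZDS (LOC106772487, chromosome 8), which acts after it, was at 247 to 278 CPM in CK, between 167 and 205 in LT, and between 165 and 194 in LT+S. The log2 fold changes were -0.51 and -0.54 (edgeR adjusted p = 0.00926 and 0.00835). The isomerases of the same stretch, which reset the geometry of the intermediates, behaved in the same manner. Prolycopene isomerase CRTISO (LOC106772686, chromosome 8) was at 62.2, 69.1 and 76.0 CPM in CK, 40.7, 50.7 and 38.3 in LT, and 46.7, 40.0 and 46.9 in LT+S, with log2 fold changes of -0.68 and -0.63 (edgeR adjusted p = 0.00352 and 0.00567). Zeta-carotene isomerase Z-ISO (LOC106778251) was at 71.1 to 79.6 CPM in CK and 52.0 to 58.5 in LT, a log2 fold change of -0.45 (edgeR adjusted p = 0.0138). In LT+S it was at 52.1 to 69.4 CPM, still below CK, at -0.31 (adjusted p = 0.0664). Without TMM factors the LT values were -0.064 for PDS1, -0.0095 for ZDS, -0.18 for CRTISO and 0.057 for Z-ISO.

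The cyclases stand at the fork of the pathway. The beta cyclase builds the rings of beta-carotene and of everything that leads to abscisic acid, and the epsilon cyclase builds the ring that sets alpha-carotene and lutein apart. Lycopene beta cyclase (LOC106752577) was at 156, 146 and 135 CPM in CK, 80.1, 92.0 and 73.7 in LT, and 81.4, 90.5 and 87.4 in LT+S. It fell by 0.83 on the log2 scale in LT (SE 0.12, edgeR adjusted p = 5.4e-04) and by 0.75 in LT+S (SE 0.11, adjusted p = 0.00109). Without TMM factors the LT+S value was -0.26 and no longer passed (edgeR adjusted p = 0.0746).

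Lycopene epsilon cyclase (LOC106761979, chromosome 5) fell further. It was at 84.3, 100.1 and 111 CPM in CK, 30.9, 23.7 and 19.0 in LT, and 40.3, 31.8 and 34.5 in LT+S. Every LT library was below every LT+S library, and both groups were far below CK. The log2 fold change was -2.01 in LT (SE 0.19, edgeR adjusted p = 1.0e-04), which is 4.01-fold lower, and -1.47 in LT+S (SE 0.19, adjusted p = 5.0e-04). The log2 ratio of epsilon to beta cyclase reads was -0.57 ± 0.31 (SD, n = 3) in CK, -1.76 ± 0.34 in LT and -1.29 ± 0.25 in LT+S. The ratio in every cold library was below that in every CK library (exact permutation test, 2-sided, p = 0.1).

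**Figure D2:**
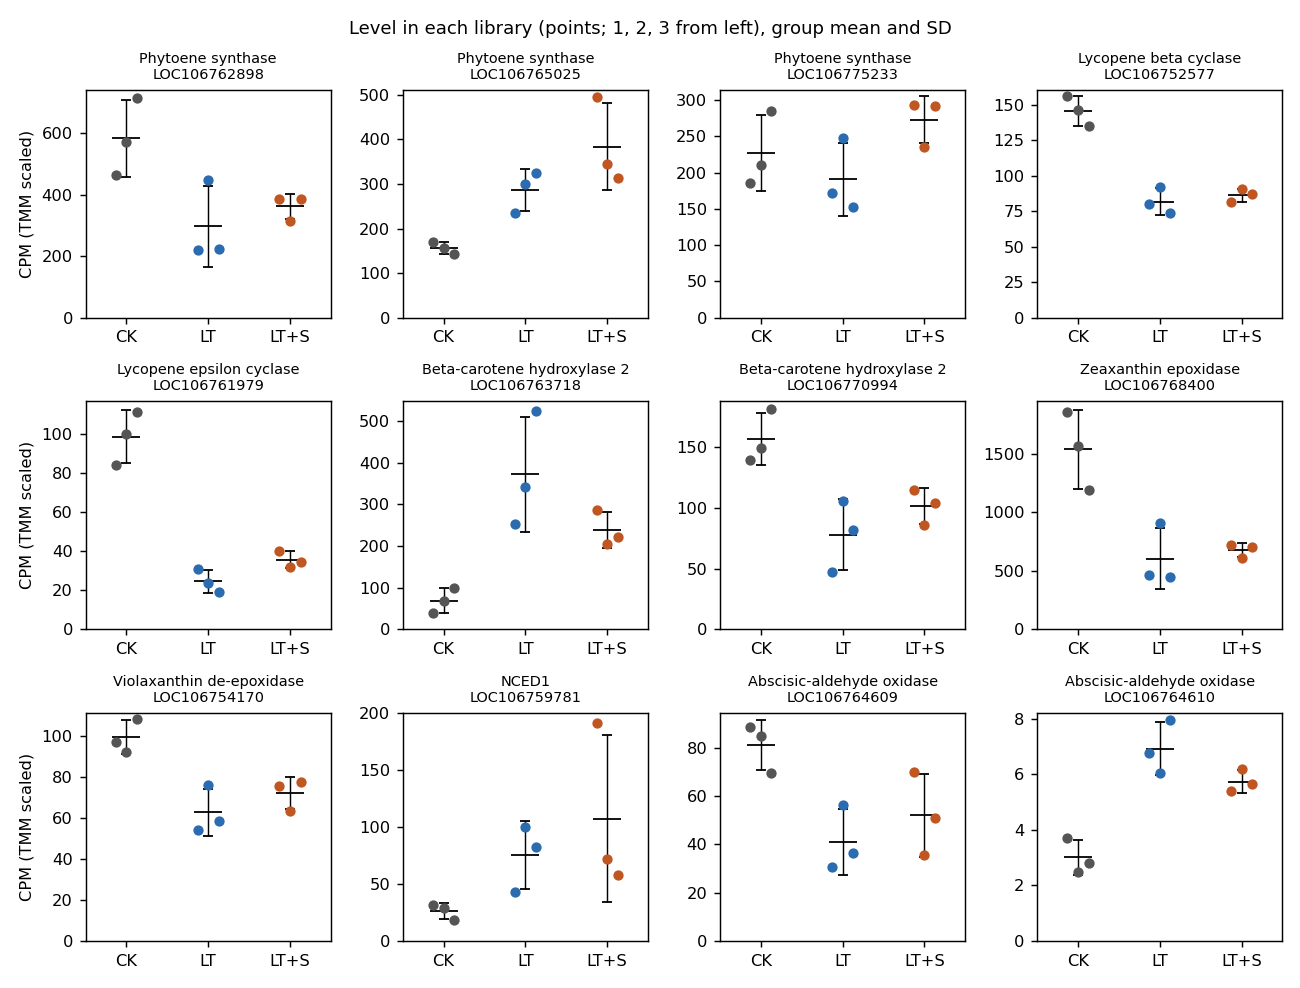
Level of 12 genes in each library, in CPM from 0 (y axis), for CK, LT and LT+S (x axis); points are libraries 1 to 3 from left to right, and bars are the mean and SD. Lycopene epsilon cyclase is at 84.3 CPM or more in CK and at 40.3 or less under cold, while BCH2 LOC106763718 is at 99.0 or less in CK and at 205 or more under cold.

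Ring hydroxylation held responses in both directions. Cytochromes P450 of the CYP97 family hydroxylate alpha-carotene on the way to lutein. Carotene epsilon-monooxygenase CYP97C1 (LOC106772401, chromosome 8) was at 96.4, 128 and 162 CPM in CK, 48.3, 54.1 and 47.3 in LT, and 58.1, 48.9 and 56.4 in LT+S. No cold library reached CK. The log2 fold changes were -1.37 (SE 0.18, edgeR adjusted p = 4.1e-04) and -1.24 (SE 0.18, adjusted p = 8.3e-04). CYP97A3, the LUTEIN DEFICIENT 5 protein (LOC106758055, chromosome 4), was at 116, 154 and 192 CPM in CK, 42.3, 91.4 and 65.6 in LT, and 123, 57.4 and 86.5 in LT+S. LT was below CK in every library, at a log2 fold change of -1.21 (edgeR adjusted p = 0.0179), whereas LT+S overlapped with CK through LT+S 1, at -0.79 (adjusted p = 0.0905). The LT call was lost without CK 3 or LT 1 (adjusted p = 0.0576 and 0.0530).

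The non-haem hydroxylase annotated as beta-carotene hydroxylase 2, an enzyme type that makes zeaxanthin from beta-carotene, had 2 genes that changed in opposite directions. LOC106763718 on chromosome 1 was at 39.9, 67.8 and 99.0 CPM in CK, 252, 341 and 524 in LT, and 286, 205 and 221 in LT+S. All cold libraries were at least 205 CPM and all CK libraries below 100 CPM. The log2 fold change was 2.43 in LT (SE 0.37, edgeR adjusted p = 8.5e-04), or 5.40-fold, and 1.79 in LT+S (SE 0.36, adjusted p = 0.00426), or 3.45-fold. LOC106770994 on chromosome 8 was at 140, 150 and 181 CPM in CK, 47.1, 106 and 81.3 in LT, and 115, 85.5 and 104 in LT+S. It fell in LT (log2 fold change -1.01, SE 0.26, edgeR adjusted p = 0.0130) and was at -0.63 in LT+S (adjusted p = 0.0854), with every LT+S library below CK.

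As a result, LOC106763718 held 22.2, 31.2 and 35.4% of the reads of these genes in CK, 84.3, 76.3 and 86.6% in LT, and 71.4, 70.6 and 68.0% in LT+S. The groups did not overlap, including LT and LT+S (exact permutation test, 2-sided, p = 0.1 for each pair of groups, 0.157 after adjustment). The sum of both genes was 226 ± 50.8 (SD, n = 3) CPM in CK, 450 ± 153 in LT and 339 ± 56.5 in LT+S. The sum in every cold library was above that in every CK library.

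**Figure D3:**
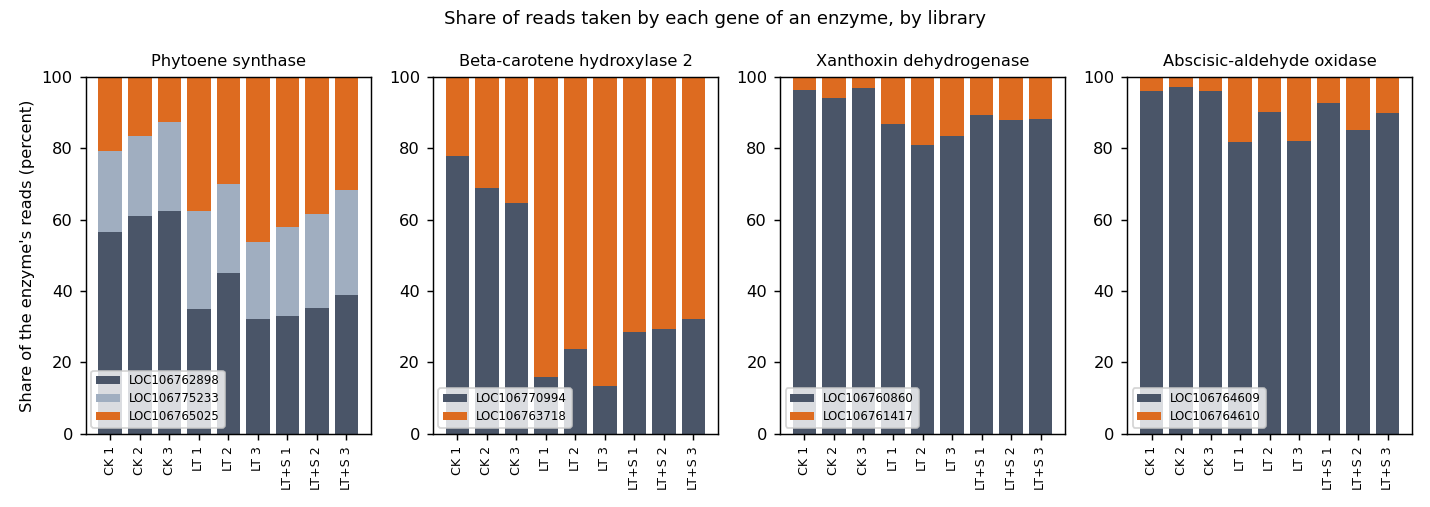
Share of an enzyme's reads (y axis, percent) taken by each of its genes, for the 9 libraries (x axis), in phytoene synthase, beta-carotene hydroxylase 2, xanthoxin dehydrogenase and abscisic-aldehyde oxidase. In each panel the gene in orange takes more in every cold library than in any CK library, as for BCH2 LOC106763718 with 35.4% or less in CK and 68.0% or more under cold.

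Zeaxanthin epoxidase, which converts zeaxanthin to violaxanthin and so both removes the protective pigment and feeds abscisic acid synthesis, was represented by 5 genes. LOC106768400 on chromosome 7 took 99.7% ± 0.0415 (SD, n = 3) of their reads in CK. Its level was 1855, 1565 and 1187 CPM in CK, 461, 905 and 444 in LT, and 720, 612 and 701 in LT+S. Every cold library was below every CK library, and LT 2 was again the highest of LT. The gene fell by 1.35 on the log2 scale in LT (SE 0.30, edgeR adjusted p = 0.00566) and by 1.18 in LT+S (SE 0.30, adjusted p = 0.0118). The RefSeq annotation places a pseudogene, LOC106766252, across it, and without the strand of the counts their reads cannot be told apart.

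The remaining zeaxanthin epoxidase genes were at low levels, and 3 of the 4 were tested and rose. LOC106776942 on chromosome 11 was at 2.96, 3.10 and 1.90 CPM in CK, 6.89, 5.19 and 5.87 in LT, and 5.64, 5.52 and 4.94 in LT+S, without overlap. Its log2 fold changes were 1.17 and 1.01 (edgeR adjusted p = 0.00281 and 0.00668). The others form a cluster on chromosome 2 of Vradiata_ver6 from 24656274 to 24711338. Within it LOC106755462 and LOC106755730 were higher in both cold groups, at no more than 5.86 and 2.73 CPM in any library, and LOC106755821 was too low to test. The LT+S call of LOC106755730 was lost without CK 1, CK 2 or any of the LT+S libraries (edgeR adjusted p = 0.0576 to 0.107) and with the replicate number as a block (0.0656). The share of LOC106768400 was 97.9% ± 1.01 in LT and 98.3% ± 0.470 in LT+S. The sum over the genes was therefore lower as well, at 1540 ± 335 CPM in CK, 615 ± 260 CPM in LT and 689 ± 56.0 CPM in LT+S.

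Violaxanthin de-epoxidase VDE1 (LOC106754170), which runs the xanthophyll cycle in the opposite sense, also fell, but by less. It was at 97.0, 92.1 and 108 CPM in CK, 54.0, 75.7 and 58.5 in LT, and 75.5, 63.1 and 77.3 in LT+S. The log2 fold change was -0.66 in LT (SE 0.15, edgeR adjusted p = 0.00620) and -0.46 in LT+S (SE 0.15, adjusted p = 0.0334). The LT+S call was lost without any 1 of the CK or LT+S libraries (adjusted p = 0.0548 to 0.116), and without TMM factors the LT+S value was 0.03. The log2 ratio of reads of LOC106768400 to those of the de-epoxidase was 4.26, 4.09 and 3.46 in CK, 3.10, 3.58 and 2.92 in LT, and 3.25, 3.28 and 3.18 in LT+S. LT overlapped with CK in this ratio (exact permutation test, 2-sided, p = 0.2) and LT+S did not (p = 0.1).

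Cleavage to xanthoxin by NCED is the committed step of abscisic acid synthesis, and it is known to be controlled through transcript level in water-stressed leaves. NCED1 (LOC106759781, chromosome 5) was at 31.4, 28.5 and 18.6 CPM in CK, 42.6, 100.5 and 82.9 in LT, and 192, 72.3 and 57.9 in LT+S. All cold libraries were above all CK libraries, and both cold groups were wide, with LT+S 1 far above the rest. The log2 fold change was 1.52 in LT (SE 0.48, edgeR adjusted p = 0.0290), or 2.88-fold, and 2.04 in LT+S (SE 0.49, adjusted p = 0.00983), or 4.10-fold. The LT call was lost without CK 2, CK 3, LT 2 or LT 3 (adjusted p = 0.0619 to 0.0907), while the LT+S call remained without each library in turn.

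NCED1 was higher in the cold while the epoxidase before it was lower. Within a library, the log2 ratio of NCED1 to LOC106768400 reads was -5.89 ± 0.11 (SD, n = 3) in CK, -3.01 ± 0.53 in LT and -2.86 ± 0.87 in LT+S. The ratio in every cold library was above that in every CK library (exact permutation test, 2-sided, p = 0.1). The other gene of this step, NCED2 (LOC106770528, chromosome 8), did not exceed 1.55 CPM in any library. It was higher in LT at an adjusted p of 0.0491 from edgeR, a call lost without 6 of the 9 libraries in turn, with no filter, in a fit of 6 libraries, with the replicate block and in limma-voom (adjusted p up to 0.0993). It was not called in LT+S.

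Vascular tissue is a known site of abscisic acid synthesis, so marker levels were set beside these genes. The summed level of 55 vascular and secondary wall genes came to 87.7 CPM in CK 1, 454 CPM in CK 2 and 794 CPM in CK 3. It was between 229 and 610 CPM in LT and between 368 and 428 CPM in LT+S, and 1 of the 55 was at 0. The cold groups lay within the CK range. Among CK libraries, NCED1 and LOC106768400 were lowest where the vascular sum was highest, and LOC106762898, lycopene epsilon cyclase and CYP97C1 were highest there. These genes are examples, and other members were also highest or lowest in CK 3. The mesophyll sum rose in the same order, at 59975, 76246 and 101475 CPM in CK 1, CK 2 and CK 3. The CK libraries therefore cannot tie these genes to vascular tissue. Guard cell genes, 8 in all with 1 at 0, summed to 64.0 to 99.2 CPM in CK, between 121 and 127 in LT, and between 95.7 and 129 in LT+S. Flower markers (51 genes, 22 at 0) summed to 400.1 to 499 CPM in CK, between 564 and 713 in LT, and between 439 and 628 in LT+S. Root and nodule markers (27 genes, 9 at 0) summed to 483 to 702 CPM in CK and 239 to 285 under cold. That sum fell although 5 of its genes were called higher and 2 lower in LT, and 4 and 1 in LT+S. For guard cell genes 2 were higher in LT and 1 in LT+S, for flower genes 4 and 3, with 0 lower. For vascular genes 1 was higher in LT and 2 lower in LT+S. Over CK 1, CK 2 and CK 3 the root and nodule sum rose, and the guard cell and flower sums fell. The part of these shifts in the results was not tested.

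The last reactions turn xanthoxin into abscisic aldehyde, by a short-chain dehydrogenase known as ABA2, and then into abscisic acid, by the molybdenum enzyme AAO3. Both enzymes had 2 genes next to each other on a chromosome, and in both pairs one gene fell in LT while its neighbour rose, although neither fall passed without TMM factors. The dehydrogenase genes lie on chromosome 5 of Vradiata_ver6 from 26830706 to 26839729, with no annotated gene between them. ABA2 LOC106760860 was at 29.9, 26.6 and 29.7 CPM in CK, 21.9, 19.3 and 20.3 in LT, and 27.4, 19.3 and 21.8 in LT+S. Its log2 fold change was -0.49 in LT (SE 0.14, edgeR adjusted p = 0.0184; adjusted p = 0.0585 without LT 2), turning to 0.02 without TMM factors. In LT+S it was -0.33 (adjusted p = 0.0861), with LT+S 1 within the CK range.

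Its neighbour LOC106761417, named here although it stayed under 5 CPM, was at 1.10, 1.67 and 0.917 CPM in CK, 3.32, 4.51 and 3.99 in LT, and 3.29, 2.66 and 2.93 in LT+S. The groups did not overlap, and every LT+S library lay between CK and LT. The log2 fold changes were 1.67 (SE 0.27, edgeR adjusted p = 0.00120) and 1.26 (adjusted p = 0.00581). It supplied 4.15% ± 1.54 (SD, n = 3) of the reads of the pair in CK, 16.2% ± 2.90 in LT and 11.5% ± 0.725 in LT+S.

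The oxidase genes lie on chromosome 6 from 3618705 to 3636368, again with no gene between them. AAO3 LOC106764609 was at 88.7, 85.1 and 69.5 CPM in CK, 30.5, 56.5 and 36.3 in LT, and 69.9, 35.7 and 50.7 in LT+S. LT was below CK throughout (log2 fold change -0.98, SE 0.28, edgeR adjusted p = 0.0190), while LT+S 1 reached the lowest CK library (-0.64, adjusted p = 0.0968). Without TMM factors the LT value was -0.49 (edgeR adjusted p = 0.119). The LT call was lost without CK 2, LT 1 or LT 3 (adjusted p = 0.0560 to 0.0632). AAO3 LOC106764610 was at 3.72, 2.50 and 2.82 CPM in CK, 6.77, 6.06 and 7.95 in LT, and 5.39, 6.20 and 5.65 in LT+S. All cold libraries were above CK, with log2 fold changes of 1.20 (SE 0.20, edgeR adjusted p = 0.00148) and 0.93 (SE 0.20, adjusted p = 0.00614). Its share of the pair was 3.59% ± 0.639 (SD, n = 3) in CK, 15.3% ± 4.84 in LT and 10.7% ± 3.87 in LT+S.

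Opposite changes within an enzyme depended on the scaling. Of the 6 enzymes with at least 2 tested genes, 5 had a gene called higher and a gene called lower in LT: phytoene synthase, beta-carotene hydroxylase 2, zeaxanthin epoxidase, xanthoxin dehydrogenase and abscisic-aldehyde oxidase. Without TMM factors this held for 1 of them, zeaxanthin epoxidase, and in LT+S against CK it held for 1 with TMM factors. These 6 enzymes had 7 of 15 genes higher and 5 lower, whereas the 13 enzymes with 1 tested gene had 2 higher, both of them NCED, and 9 lower. In LT+S against CK the counts were 7 higher and 1 lower, and 1 higher and 7 lower. The contrast depends on naming, as NCED1 and NCED2 act at the same step but were counted as separate enzymes. Taken as 1 enzyme, they would join the former group and take every higher gene of the latter with them. This grouping was made after the values were seen and carries no test. Reads that fit several copies could be shared between them, and the sequences of the copies were not analysed here.

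No gene of the side branches passed an adjusted p of 0.05 in either comparison with CK. The glucosyltransferase AOG, which stores abscisic acid as an inactive ester, had LOC106765517 at 30.0 to 39.2 CPM in CK, between 20.9 and 36.1 in LT, and between 29.8 and 46.9 in LT+S, and LOC106757431 at no more than 1.43 CPM in any library. LOC106757431 did not overlap between LT and CK and passed the threshold on fold there (2.16-fold higher, unadjusted p = 0.0341, edgeR adjusted p = 0.0680), and without TMM factors it was called higher in LT (adjusted p = 0.0128) and LT+S (0.0305). Carotenoid cleavage dioxygenase CCD4 (LOC106777861), an enzyme that degrades carotenoids in plastids, was spread widely in CK and LT, and the groups overlapped. It was at 1623, 1104 and 532 CPM in CK, 929, 922 and 344 in LT, and 555, 647 and 742 in LT+S. The strigolactone branch was hardly expressed: the isomerase D27 LOC106757530 was at or below 1.96 CPM, and a second D27, CCD7 and CCD8B were too low to test, with no untested gene of the 6 above 0.590 CPM in any library. Capsanthin/capsorubin synthase and that second D27 had 0 counts in all 9 libraries.

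Between the uniconazole and the water spray under cold, no gene of the pathway passed the test. EdgeR called 0 of the 28 genes at an adjusted p below 0.05, as did DESeq2, where edgeR called 0.0104% of all genes higher and 0.00518% lower. DESeq2 called 228 of 19273 genes in all. Before adjustment 2 genes had a p below 0.05 in edgeR, 7.14% of those tested against 7.07% of all genes, and 3 in DESeq2. The threshold on fold took 0 genes (2.46% of all genes). The libraries of LT and LT+S were separate in 2 of 28 genes (14.1% of all genes), lycopene epsilon cyclase, which was higher in LT+S, and ABA2 LOC106761417, which was lower. At an unadjusted p below 0.05 in edgeR, the share of genes was thus close to that of the whole transcriptome in the fit of all libraries. Without LT 2 the count was 7 of 28 genes, and without any other library it was 1 to 3. The share over all genes was not counted in those fits. The share of separate genes was lower, at 7.14% against 14.1%, and for DESeq2 the share over all genes before adjustment was not counted.

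The largest signal by p was in lycopene epsilon cyclase, where LT+S exceeded LT by 0.53 on the log2 scale (95% interval 0.11 to 0.96, unadjusted p = 0.0192, edgeR adjusted p = 0.561). Its unadjusted p was not below 0.05 without LT 2, LT 3 or LT+S 1. The log2 ratio of epsilon to beta cyclase reads overlapped between LT and LT+S (exact permutation test, 2-sided, p = 0.2). Phytoene synthase LOC106775233 was 0.52 higher (95% interval 0.01 to 1.02, unadjusted p = 0.0453, edgeR adjusted p = 0.694). That gene's unadjusted p was not below 0.05 without CK 2, LT 1, LT 3, LT+S 1 or LT+S 3, nor with the replicate block. For NCED1 the difference was 0.51 with a 95% interval of -0.55 to 1.57, and it turned to -0.21 without LT+S 1. For BCH2 LOC106763718 it was -0.65 (-1.44 to 0.14), and for zeaxanthin epoxidase LOC106768400 it was 0.17 (-0.49 to 0.83). Intervals of this width do not show that the sprays act alike. They were narrower for lycopene beta cyclase (0.08, -0.18 to 0.34), ZDS (-0.03, -0.31 to 0.25), CRTISO (0.04, -0.26 to 0.35) and Z-ISO (0.14, -0.13 to 0.41). Over the 28 genes, 18 had a positive log2 fold change, against 48.9% of all genes, with a median of 0.15 (-0.01 over all genes).

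**Figure D4:**
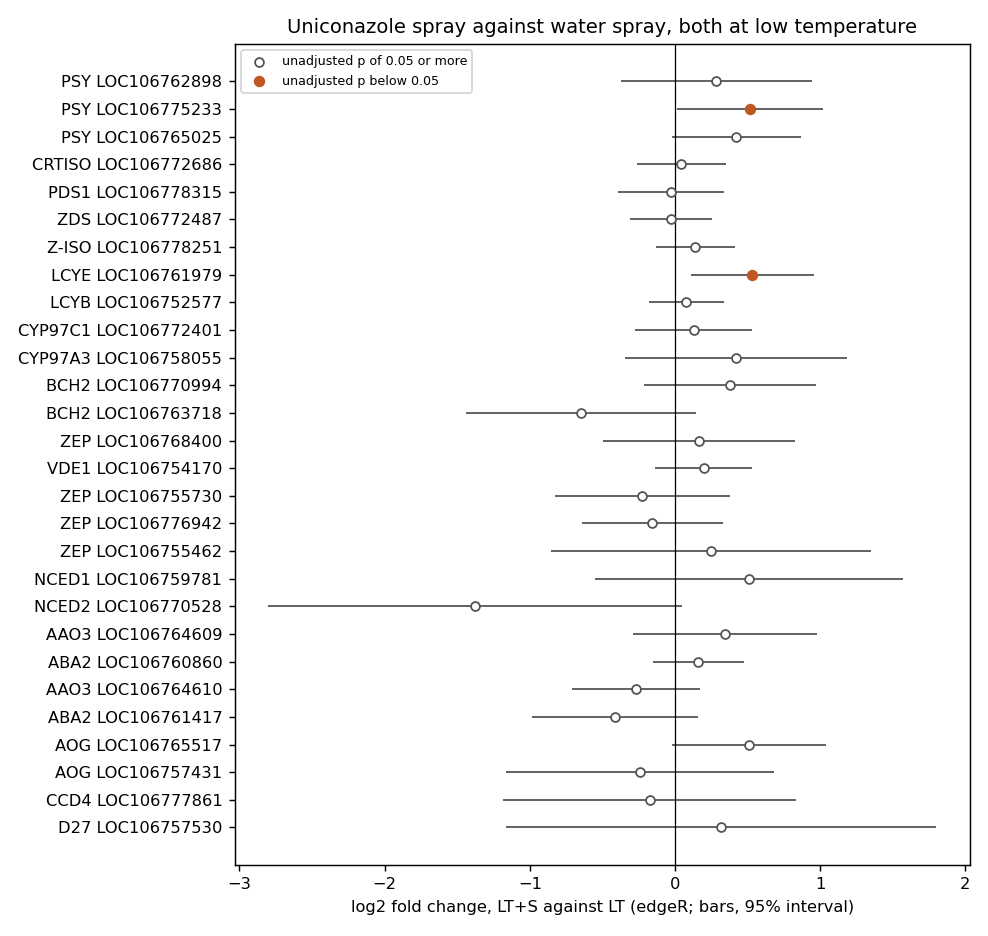
Log2 fold changes of LT+S against LT (x axis; edgeR, with 95% intervals) of the 28 tested genes in the order of the pathway. The filled points, lycopene epsilon cyclase at 0.53 and phytoene synthase LOC106775233 at 0.52, have an unadjusted p below 0.05; no gene passed an adjusted p of 0.05.

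Genes around the pathway were read from lists matched to product descriptions. Over all genes tested, 22.8% were higher and 23.7% lower in LT, and 19.7% and 21.9% in LT+S. Some list counts were near or below these shares. A list of 27 genes for the plastid isoprenoid supply, which makes geranylgeranyl diphosphate, also held genes that use such products, caught by name. These were protein prenyltransferases and geranylgeranyl diphosphate reductases. Of 24 tested genes, 7 were higher and 10 lower in LT, and 9 and 10 in LT+S. Calls in both directions included genes caught by name, such as reductase LOC106768993 (log2 fold changes -2.47 in LT and -1.67 in LT+S). Reductoisomerase gene LOC106772984 of that supply fell from 9815 CPM in CK to 1036 in LT and 987 in LT+S (group means, log2 fold changes -3.24 and -3.31, edgeR adjusted p = 1.7e-04 and 2.1e-04). Another, LOC106769052, fell from 421 to 161 and 166 CPM. Synthase gene DXS2 LOC106765440 rose from 2.34 to 8.99 and 9.54 CPM (1.94 and 2.02, edgeR adjusted p = 1.3e-04 and 1.5e-04). Of the other synthase genes, LOC106765732 and LOC106769383 were also called higher in both cold groups, and LOC106775981 in LT+S only. The most abundant, LOC106768513, was at 263, 311 and 308 CPM and was not called (edgeR adjusted p = 0.361 and 0.405), nor was LOC106762427. The list for plastoquinone and tocopherol synthesis, which supplies the electron acceptor of the desaturases, had 15 tested genes, 3 higher and 5 lower in each cold group. It included homogentisate dioxygenase HGO (LOC106756101) and ubiquinol oxidase AOX4 (LOC106774530), which are not synthesis genes and were not called in either group. The ORANGE protein, a known partner of phytoene synthase in Arabidopsis, and plastid-lipid-associated proteins, which coat carotenoid-storing lipid droplets, made a list of 13, with 1 higher and 10 lower in LT and 1 and 9 in LT+S (medians -1.67 and -0.80). Cleavage dioxygenase CCD1 (LOC106756354), the only tested gene of 3, fell by 1.43 and 1.11.

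Another list held genes for the molybdenum cofactor that AAO3 needs. Its aldehyde oxidases were all GLOX genes, which are copper enzymes of a different kind. Of its 13 tested genes, 1 was higher and 3 lower in LT, and 2 and 2 in LT+S. Among 7 tested abscisic acid breakdown genes, all of them 8'-hydroxylases, 2 were higher and 2 lower in LT, and 4 and 1 in LT+S. EdgeR called 0 genes of these lists in the comparison of the sprays. DESeq2 called the 8'-hydroxylases LOC106753610 (group means 217, 49.5 and 112 CPM in CK, LT and LT+S; log2 fold change of LT+S against LT 1.17, DESeq2 adjusted p = 0.00701 and 0.289 from edgeR) and LOC106767139 (1.20, 2.05 and 6.57 CPM; 1.68, DESeq2 adjusted p = 2.6e-04 and 0.127 from edgeR) and 1 gene each of the isoprenoid supply and of the plastid-lipid-associated proteins.

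**Figure D5:**
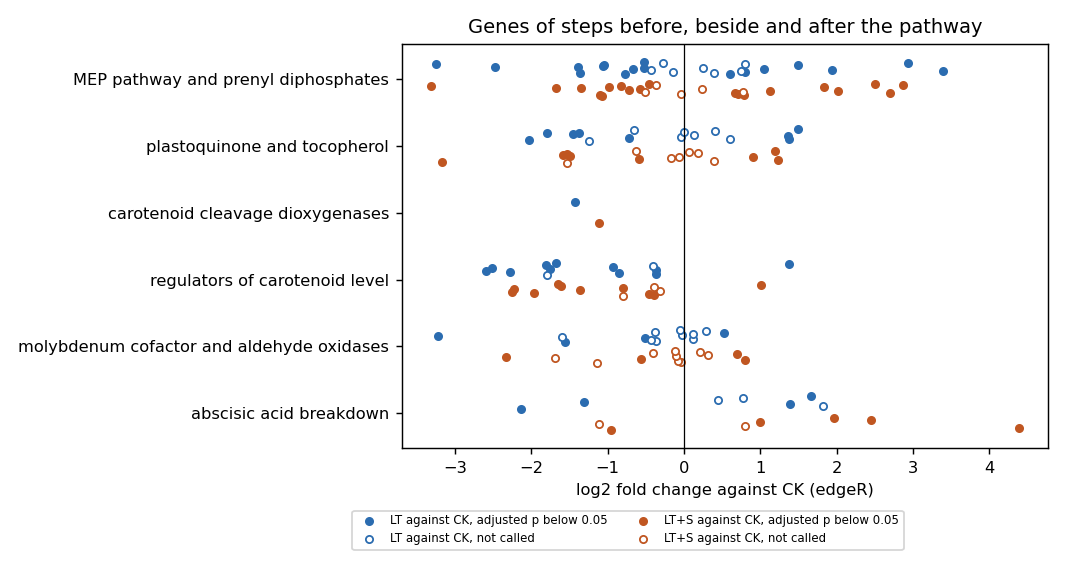
Log2 fold changes against CK (x axis; edgeR) of the tested genes of 6 lists (y axis) around the pathway, with LT in blue, LT+S in orange and filled points at an adjusted p below 0.05. The list of ORANGE and plastid-lipid-associated proteins lies mostly below 0, with 10 of 13 genes lower in LT.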

How the data were processed

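The deposited values are raw counts of reads per gene, with no normalization, in 1 table of 26966 genes with product and pathway descriptions. According to the methods, the authors trimmed reads with Trimmomatic, aligned them to Vradiata_ver6 with HISAT2 and counted them with htseq-count. Libraries were made by poly-A selection, per the labels. The notes of the submitters also name CASAVA 1.8 and Cufflinks. Strand and the handling of multi-mapped reads are not given in the sources used here. All members were matched by identifier to the RefSeq table of Vradiata_ver6, and 6 lie on unplaced sequence.

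EdgeR 4.0.16 was run in R 4.3.3 on the 19304 genes that filterByExpr kept. Libraries were scaled by TMM, with factors from 0.781 to 0.804 in CK, from 1.05 to 1.17 in LT, and from 1.10 to 1.14 in LT+S. All 9 libraries were fitted by group with glmQLFit and glmQLFTest, and p-values were adjusted (Benjamini-Hochberg) over every tested gene. Each pot is a biological replicate per the methods. The standard error is the log2 fold change divided by the square root of F. Alternatives were DESeq2 1.42.0, its size factors, no filter, a mean of at least 1 CPM, 6 libraries, limma-voom (limma 3.58.1), the replicate number as a block and each library left out. The steps were also run on simulated counts, with a set of genes changed up or down and equal group means otherwise. That simulation held no broad shift in composition between groups, so it does not bear on the choice of scaling. Values in every library are given for members with a mean of at least 5 CPM in their highest group that passed against CK, or with an unadjusted p below 0.05 between LT+S and LT. Values of NCED2, ABA2 LOC106761417, CCD4 and other members outside that rule had been seen when they were named, as had those behind the within-library shares and ratios. The members and lists were chosen with earlier results of these data known. Figures were drawn with matplotlib 3.10.9.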

Additional observations from a re-analysis of the deposited data

How the results depend on the processing

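DESeq2, DESeq2 size factors, limma-voom, no filter and a mean of at least 1 CPM changed no call of the 20 members that met the rule above on level and p. Of 19 such calls in LT against CK 13 held under every other setting than library totals, and of 13 in LT+S against CK 11 did. Leaving out 1 library at a time, 7 to 9 members were higher and 10 to 14 lower in LT than in CK, and 7 to 8 higher and 6 to 11 lower in LT+S than in CK. By the fold change over 2, the ranges were 11 to 16, 8 to 10 and, between LT+S and LT, 0 to 1, the 1 without LT 2 or without LT+S 1. Library totals with no TMM factors, chosen after the data were seen, gave 4 lower members in LT and 3 in LT+S. Under that setting log2 fold changes against CK turned to 0.021 in LT and 0.16 in LT+S for ABA2 LOC106760860, to 0.057 and 0.19 for Z-ISO LOC106778251, to 0.24 in LT for phytoene synthase LOC106775233, and to 0.031 in LT+S for VDE1 LOC106754170. The cause was not tested.

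For LT+S against LT, uncalled differences changed sign without 1 library. They ranged from -0.21 to 0.81 for NCED1 LOC106759781, from -0.012 to 0.58 for LOC106768400, from -0.092 to 0.068 for ZDS LOC106772487, from -0.036 to 0.17 for CRTISO LOC106772686, and from -0.19 to 0.098 for PDS1 LOC106778315. Fits of the 6 libraries of a comparison called LOC106762898 (adjusted p = 0.0212) and LOC106770994 (0.0149, both from edgeR) in LT+S against CK.

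Replicate numbers are shared between groups. Over the comparisons, deviations from the group mean correlated at -0.296 to 0.267 for same-numbered libraries and at -0.266 to 0.364 for the others. In LT+S against CK the same-numbered correlations were all positive, at 0.077 to 0.267, with -0.258 to 0.168 for the others. With the replicate number as a block, 8 members were higher and 14 lower in LT, 7 and 7 in LT+S, and 0 between LT+S and LT; VDE1 (adjusted p = 0.0681 from edgeR) and zeaxanthin epoxidase LOC106755730 (0.0656) were lost in LT+S against CK, and NCED2 in LT against CK (0.0967). Counts near 1 CPM rest on few reads, and calls there are the least firm.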
